A study of Mus musculus with 8 samples.

Results

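Integrins are cell surface receptors made of an α and a β subunit that attach cells to the extracellular matrix. In the artery wall the smooth muscle cells of the media, the adventitial fibroblasts and the endothelium each carry a set of matrix-binding integrins, and the pair of subunits decides which matrix protein is bound. Inside the cell the β subunit binds talin and kindlin, which tie the receptor to the actin cytoskeleton, and smooth muscle that leaves the contractile state is known to change its integrins. The 10 subunits described here were chosen by symbol, as the matrix-binding integrins of the vessel wall, out of 21859 genes counted. They comprise the collagen receptor subunits Itga1 and Itga11, the laminin receptor subunit Itga7, Itga9, the subunits Itga5, Itga8 and Itgav of receptors for the RGD motif of fibronectin and vitronectin, and the β subunits Itgb1, Itgb3 and Itgb5. All 10 were compared between the aortas of 4 ApoE-/- mice and 4 WT mice.

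The mice were males aged 40 weeks on a normal chow diet, with WT animals of the C57BL/6 strain. ApoE-/- mice lack apolipoprotein E, which clears remnant lipoproteins, in every tissue and develop atherosclerotic plaques spontaneously. Each aorta gave 1 stranded, ribodepleted total RNA library, so a value is a mixture of all cells of the vessel and whatever tissue was left on it. The 2 genotypes share no animal, and the labels name no batch.

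The files hold 23240995 to 23940156 read pairs on genes per ApoE-/- mouse and 18375898 to 21664598 per WT mouse. Levels are given as CPM, the count of a gene relative to the TMM-scaled total of its library. Apoe itself was at 14.7 to 36.3 CPM in ApoE-/- mice and at 536 to 857 CPM in WT mice, as the labels state. Smooth muscle markers were abundant, Acta2 (smooth muscle actin) lying between 1416 and 6334 CPM. The library of ApoE-/- replicate 1 stood apart on contractile and Schwann cell markers, though the outlier check at the end flagged neither list. Its 13 contractile smooth muscle markers summed to 6390 CPM, against 15770 to 25420 CPM in the other ApoE-/- mice and 14090 to 26060 CPM in WT mice, and its 7 Schwann cell markers summed to 970 CPM, against 223 to 313 CPM and 361 to 697 CPM. The main comparisons are therefore given with and without it. The 9 tested of 10 heart muscle markers summed to 156 to 337 CPM in ApoE-/- and to 400 to 677 CPM in WT mice, without overlap. All 9 were below 0 with a median log2 fold change of -2.77, with 0 called in edgeR (8 past an unadjusted p of 0.05) and 5 in DESeq2, and without ApoE-/- replicate 1 edgeR called 6 and DESeq2 8. Myh6, the α myosin heavy chain of heart muscle, was at 1.18 to 51.3 CPM in ApoE-/- and 88.6 to 158 CPM in WT mice. Ryr2, a calcium release channel also found outside the heart, was at 123 to 311 CPM in ApoE-/- mice, most of the summed level there, with a log2 fold change of -0.016. The part of heart muscle in the level of any member was not tested.

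Per length, the β1 and α8 chains made up most of the integrin RNA. Dividing the CPM of each gene by the length of its annotated exons in GENCODE M21 gave 283 ± 38.9 CPM per kb (SD, n = 4) for Itgb1 in WT aortas. Itga8, an α chain typical of smooth muscle, followed at 260 ± 73.3 CPM per kb. These 2 subunits overlapped each other and lay above all the rest. A middle group followed, with Itgb5 at 59.1 ± 8.72, Itga5 at 55.6 ± 13.4 and Itga9 at 51.9 ± 17.1 CPM per kb, and its neighbours overlapped as well. The group below it held Itga1 at 24.7 ± 2.79, Itga7 at 19.97 ± 2.88, Itgav at 18.9 ± 1.67 and Itgb3 at 16.01 ± 4.03 CPM per kb, again with each overlapping the next. Itga11 was by far the rarest, at 2.84 ± 0.0365 CPM per kb. The highest 2 and the lowest subunit kept their places in ApoE-/- aortas. There Itga5, at 80.6 ± 57.1, lay next to Itgb5, at 79.6 ± 31.5 CPM per kb, with an overlap between them.

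**Figure D1:**
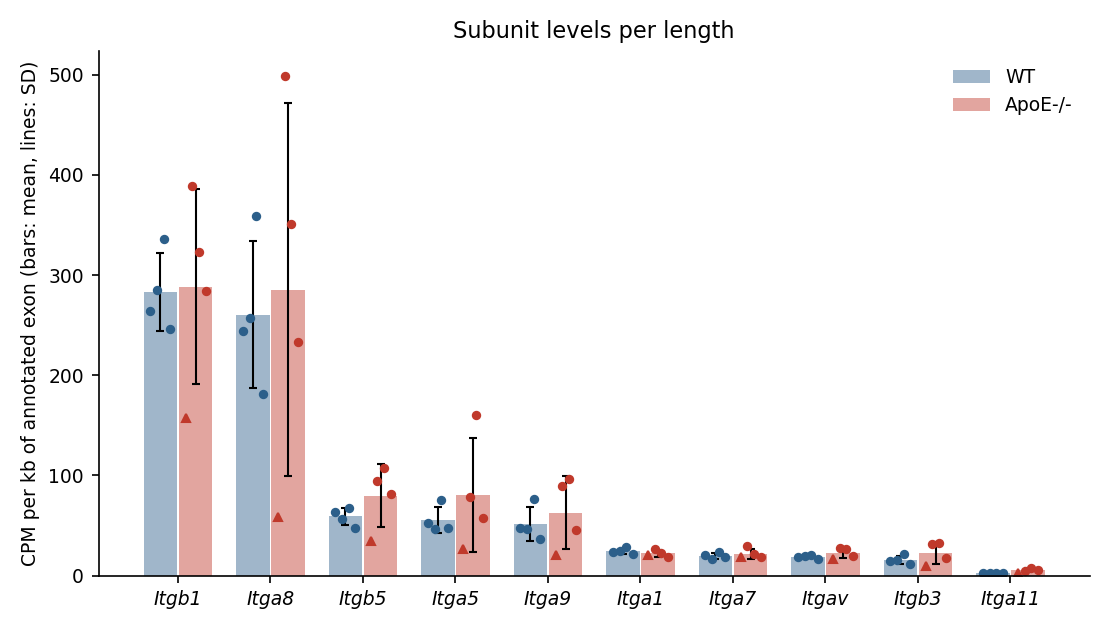
Level of each subunit in CPM per kb of annotated exon, on a linear axis, for WT (blue) and ApoE-/- (red) aortas. Bars are means of 4 mice, lines are SD, points are mice and the triangle is ApoE-/- replicate 1. Itgb1 and Itga8 stand above the other 8 subunits in WT, and Itga11 is lowest.

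Counted as shares of the 7 α subunits, with levels per length, Itga8 made up 59.6% ± 2.86 of the α chain RNA in WT aortas and 52.9% ± 12.9 in ApoE-/- aortas (SD, n = 4). In ApoE-/- replicates 1 to 4 it held 35.9%, 66.1%, 51.2% and 58.5%, the highest and the lowest of all 8 mice both being ApoE-/-, and replicate 3 also lay below the WT range of 55.6% to 62.1%. Among the 3 β subunits, Itgb1 held 79.1% ± 1.46 in WT and 74.3% ± 3.30 in ApoE-/- aortas. Itgb5 held 16.5% ± 1.36 and 20.04% ± 2.69, and Itgb3 held 4.42% ± 0.480 and 5.64% ± 1.13. The genotypes overlapped for each of these shares of the β chains. For Itgb1 the overlap rested on ApoE-/- replicate 1, at 77.7%, since the other ApoE-/- mice held 69.9% to 75.5%, below the 77.1% to 80.4% of WT aortas.

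None of the 10 subunits passed the test between genotypes. With edgeR's quasi-likelihood test and Benjamini-Hochberg adjustment over 15077 genes, 0 of 10 were called at an adjusted p of 0.05, where 70 genes, or 0.464%, were called in all. At an unadjusted p of 0.05, 1 of 10 (Itga11) passed, beside 11.4% of all genes. DESeq2 called 0 of 10, beside 4.29% of the genes it tested, and limma-voom called 0 of 10, beside 29 of all 15077 genes. The CPM values of the genotypes overlapped for all 10 subunits, whereas they did not overlap for 8.71% of genes. The fitted log2 fold change was above 0 for 9 of 10, with a median of 0.26, beside 58.0% of all genes above 0 and a median of 0.05. This median rested on single mice, being 0.08 with 6 of 10 above 0 without ApoE-/- replicate 3, 0.10 with 6 of 10 without replicate 2 and 0.53 with 9 of 10 without replicate 1. In limma-voom 7 of 10 were above 0. In bulk tissue, fewer cells of a type and less RNA per cell cannot be told apart.

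**Figure D2:**
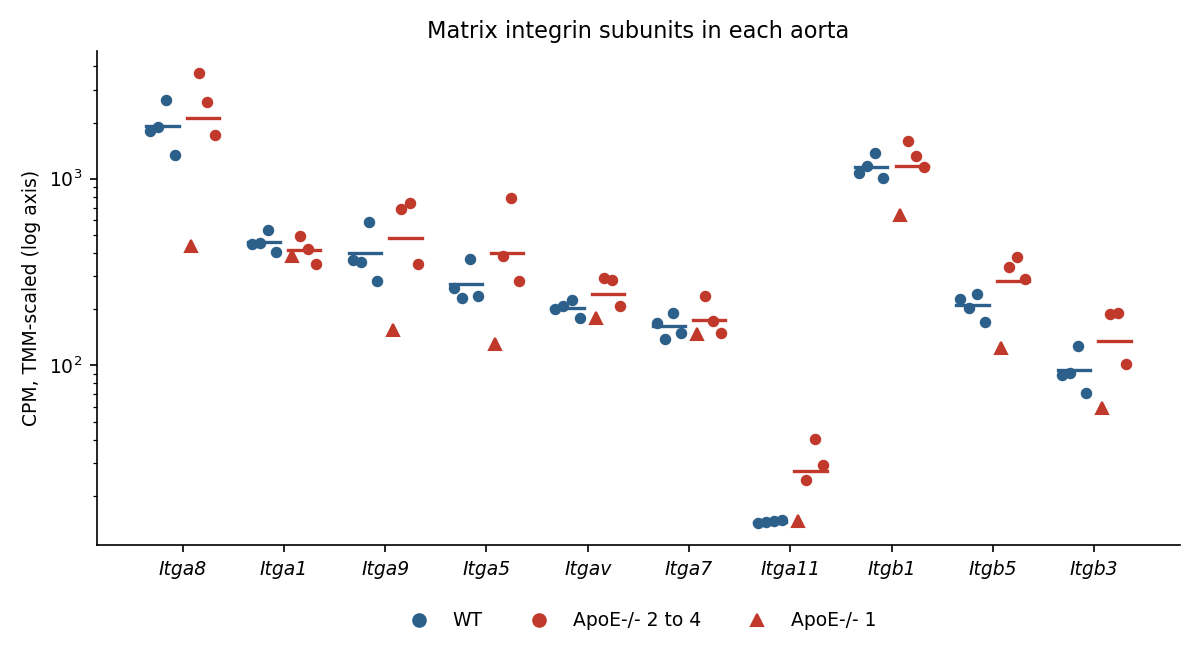
CPM of each subunit in each of the 8 aortas, on a log axis, with the mean of each genotype as a line. Blue points are WT, red points ApoE-/- replicates 2 to 4, and the triangle is ApoE-/- replicate 1, which is the lowest of the 8 mice for Itga5, Itga8, Itga9, Itgb1, Itgb3 and Itgb5.

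Of the collagen receptor subunits, Itga11 had the smallest p of the 10 members. Itga11, the α chain of a receptor for fibrillar collagen that is known from fibroblasts and myofibroblasts, lies on the plus strand of chromosome 9 from 62677826 to 62783982 (GRCm38, ENSMUSG00000032243.8). It was at 14.7, 24.3, 40.3 and 29.1 CPM in ApoE-/- replicates 1 to 4, and at 14.4, 14.5, 14.6 and 14.8 CPM in WT replicates 1 to 4. The WT mice were nearly identical, and 3 of the 4 ApoE-/- mice lay above every WT mouse while replicate 1 lay among them. The means were 27.1 ± 10.7 and 14.6 ± 0.187 CPM (SD, n = 4), from 264 to 926 read pairs a mouse. The log2 fold change of Itga11 was 0.90 (SE 0.27, 95% interval 0.28 to 1.52), with an edgeR adjusted p of 0.206 and a DESeq2 adjusted p of 0.0648. Without ApoE-/- replicate 1 it was 1.10 (SE 0.17, interval 0.71 to 1.496), the genotypes did not overlap, and the adjusted p was 0.0147 with edgeR and 2.17e-06 with DESeq2.

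Itga1, the α chain of the collagen receptor of contractile smooth muscle, lies on the minus strand of chromosome 13 from 114953096 to 115101964. It was at 387, 494, 422 and 348 CPM in ApoE-/- replicates 1 to 4 and at 447, 452, 531 and 407 CPM in WT replicates 1 to 4. The genotypes overlapped widely, and Itga1 was the only member with a log2 fold change below 0, at -0.15 (SE 0.16, interval -0.51 to 0.21). It was -0.25 without ApoE-/- replicate 2 and -0.077 without WT replicate 3. Unlike most members it was not lowest in ApoE-/- replicate 1. Its exons share 685 bp with those of Gm49395 on the same strand, so its level depends on how read pairs on shared exons were counted.

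Itga7, the α chain of the laminin receptor of muscle cells, lies on chromosome 10 from 128933818 to 128958282. It was at 147, 236, 172 and 149 CPM in ApoE-/- replicates 1 to 4, and at 169, 138, 191 and 148 CPM in WT replicates 1 to 4. The genotypes overlapped, with replicate 2 of the ApoE-/- mice above every WT mouse, and with a log2 fold change of 0.12 (interval -0.30 to 0.55), which was -0.051 without that mouse.

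The receptors for fibronectin and other RGD ligands spread widely among the ApoE-/- mice. Itga8, whose receptor binds nephronectin and fibronectin, lies on the minus strand of chromosome 2 from 12106632 to 12301922. It was at 435, 3676, 2588 and 1716 CPM in ApoE-/- replicates 1 to 4, and at 1799, 1894, 2642 and 1338 CPM in WT replicates 1 to 4. The lowest and the highest value were both ApoE-/- mice. Its log2 fold change was 0.13, with a wide interval of -1.15 to 1.42 on the log2 scale. Without ApoE-/- replicate 1 it was 0.48 (interval -0.25 to 1.202). The direction turned to -0.28 without ApoE-/- replicate 2, -0.0059 without WT replicate 4, -0.19 in limma-voom and -0.15 with the replicate block.

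Itga5, the α chain of the main fibronectin receptor, lies on chromosome 15 from 103344286 to 103366763. It was at 131, 386, 789 and 284 CPM in ApoE-/- replicates 1 to 4, and at 260, 230, 371 and 237 CPM in WT replicates 1 to 4. Both its lowest and its highest value were ApoE-/- mice, and the log2 fold change of 0.53 (SE 0.48, interval -0.58 to 1.64) rested on replicate 3, without which it was -0.039 in edgeR.

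Itgav, which pairs with several β chains and binds vitronectin, osteopontin and latent TGFβ, lies on chromosome 2 from 83724397 to 83806916. It was at 180, 294, 285 and 207 CPM in ApoE-/- replicates 1 to 4 and at 201, 207, 223 and 179 CPM in WT replicates 1 to 4. ApoE-/- replicates 2 and 3 lay above every WT mouse, and the log2 fold change was 0.25 (interval -0.16 to 0.67), or 0.15 without replicate 2.

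Itga9, whose receptor binds tenascin-C and osteopontin, lies on chromosome 9 from 118606690 to 118901003. It was at 155, 688, 738 and 351 CPM in ApoE-/- replicates 1 to 4, and at 365, 358, 589 and 285 CPM in WT replicates 1 to 4. The ApoE-/- mice again enclosed the WT mice, with a log2 fold change of 0.28 (interval -0.81 to 1.36), which was -0.0028 without ApoE-/- replicate 3.

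Of the β chains, Itgb1, the common partner of the α chains named above, did not differ detectably. It lies on chromosome 8 from 128685654 to 128733200 and was at 640, 1585, 1319 and 1161 CPM in ApoE-/- replicates 1 to 4, and at 1078, 1165, 1372 and 1004 CPM in WT replicates 1 to 4. Its log2 fold change was 0.03 (SE 0.28, interval -0.61 to 0.67), and -0.16 to 0.23 when each mouse was left out in edgeR or DESeq2.

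Itgb5, which pairs with αv as a vitronectin receptor, lies on chromosome 16 from 33829665 to 33949338. It was at 124, 336, 380 and 291 CPM in ApoE-/- replicates 1 to 4, and at 226, 202, 242 and 170 CPM in WT replicates 1 to 4. ApoE-/- replicates 2 to 4 lay above every WT mouse and replicate 1 below every WT mouse. The log2 fold change of Itgb5 was 0.43 (SE 0.32, interval -0.30 to 1.16), with an edgeR adjusted p of 0.735. Without replicate 3 it was 0.25. Without replicate 1 it was 0.68 (SE 0.16, interval 0.32 to 1.04), with an adjusted p of 0.0563 in edgeR and 0.00186 in DESeq2.

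Itgb3, which pairs with αv in the vessel wall and with αIIb on platelets, lies on chromosome 11 from 104608000 to 104670476. It was at 59.1, 187, 190 and 102 CPM in ApoE-/- replicates 1 to 4, and at 88.6, 90.6, 128 and 71.1 CPM in WT replicates 1 to 4. Replicates 2 and 3 of the ApoE-/- mice were above all WT mice and replicate 1 was below them, with a log2 fold change of 0.51 (interval -0.34 to 1.36). Without replicate 3 it was 0.30 and without replicate 1 it was 0.76. Itga2b, the platelet partner of Itgb3, was at 4.33 to 9.98 CPM in ApoE-/- and at 5.34 to 6.66 CPM in WT mice, and the 5 of 8 platelet markers with enough counts to be tested summed to 20.8 to 53.9 and 20.5 to 30.6 CPM, with 0 called by edgeR or DESeq2 and 0 past an unadjusted p of 0.05. The part of platelets in the Itgb3 values was not tested.

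**Figure D3:**
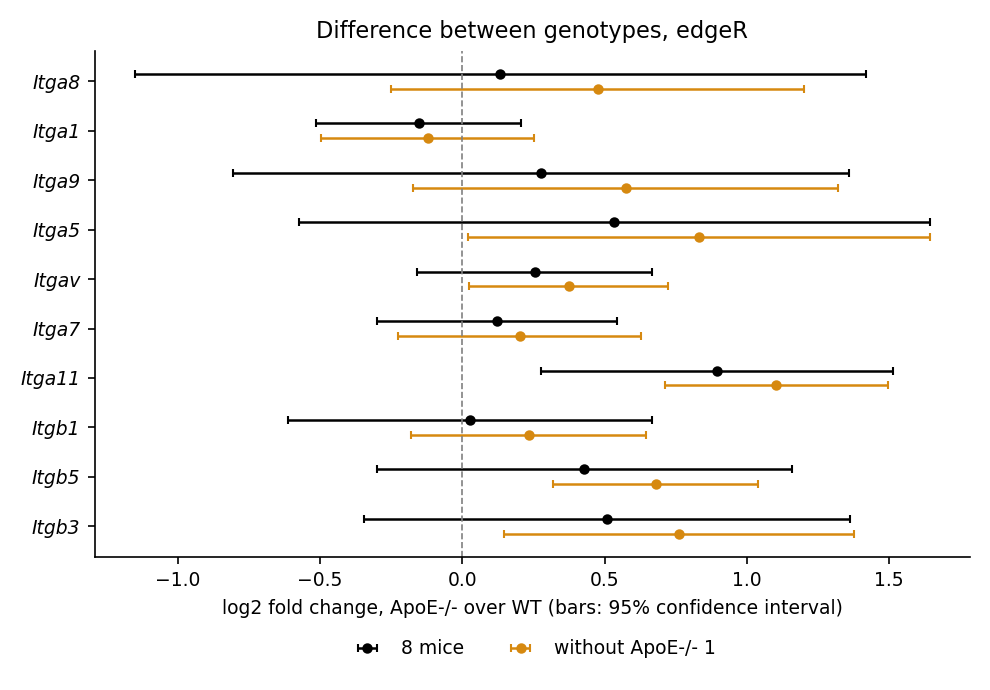
log2 fold change of each subunit, ApoE-/- over WT, from edgeR, with its 95% confidence interval as a bar, for all 8 mice (black) and without ApoE-/- replicate 1 (orange). With 8 mice the interval of Itga11 alone lies above 0, and without replicate 1 those of Itga11, Itgb5, Itgb3, Itga5 and Itgav do.

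Leaving out ApoE-/- replicate 1 moved the comparison as a whole. The number of genes called in edgeR rose from 70 to 593, or 3.91%, of which 1 was a member (Itga11), and DESeq2 called 2 of 10 (Itga11 and Itgb5), beside 9.18% of the genes it tested. The same 2 subunits no longer overlapped between genotypes, beside 17.3% of all genes. The median log2 fold change of the 10 subunits was 0.53, with 9 of 10 above 0, while that of all genes was 0.00 (50.8% above 0). Itgb3, at 0.76 (adjusted p = 0.173), and Itga5, at 0.83 (adjusted p = 0.257), did not pass the edgeR test there. The rest were at -0.12 for Itga1, 0.20 for Itga7, 0.48 for Itga8, 0.57 for Itga9, 0.37 for Itgav and 0.23 for Itgb1, with edgeR adjusted p of 0.238 to 0.778.

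Ratios of 2 subunits within a library do not depend on the library's scaling. Log2 ratios were compared for 12 pairs, 9 of them known heterodimers. An exact permutation test, two-sided, ran over the 70 ways to assign 8 mice. None was called after adjustment over the pairs. The ratio of Itga11 to Itgb1 alone separated the genotypes. It was -5.44, -6.02, -5.03 and -5.31 in ApoE-/- replicates 1 to 4, and -6.22, -6.32, -6.54 and -6.08 in WT replicates 1 to 4. Every ApoE-/- mouse, replicate 1 included, was thus above every WT mouse, by 0.84 on average, with p = 0.0286 by the exact test, the smallest p that 4 mice against 4 allow, and 0.343 after adjustment. At least 7 of the pairs would have had to reach this p for any to pass.

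**Figure D4:**
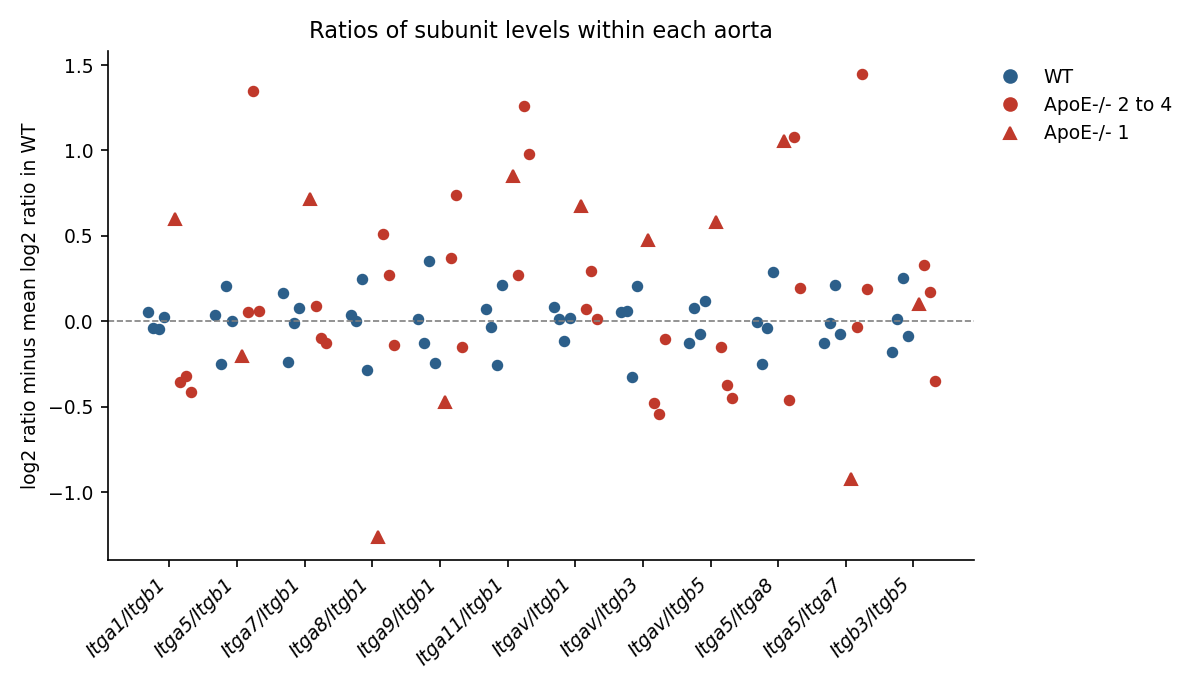
log2 ratio of 2 subunits in each aorta, less the mean log2 ratio in WT, for the 12 pairs. Blue points are WT, red points ApoE-/- replicates 2 to 4 and the triangle is ApoE-/- replicate 1. For Itga11/Itgb1 all 4 ApoE-/- mice lie above the WT mice, and in 11 pairs the genotypes overlap.

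Without ApoE-/- replicate 1, 3 ratios separated the genotypes, each with p = 0.0286 in the exact permutation test and 0.114 after adjustment. With 3 mice against 4 this test cannot give a lower p. Of single genes 17.3% did not overlap in this setting, and the share among pairs of other genes was not tested. Itga11 to Itgb1 differed by 0.84, Itga1 to Itgb1 by -0.36 and Itgav to Itgb5 by -0.32 on the log2 scale. Against the same β chain, the 2 collagen receptor chains thus lay on opposite sides of their WT ratios. For Itga1 to Itgb1 the 3 remaining ApoE-/- mice were at -1.68, -1.64 and -1.74 and the WT mice at -1.27, -1.37, -1.37 and -1.30. In replicate 1 this ratio was -0.73, above all others. The ratio of Itga5 to Itga8 differed by 0.47 over 8 mice, with overlap (p = 0.314, exact permutation test). Without replicate 1 it differed by 0.27, again with overlap (p = 0.6, exact permutation test).

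From mouse to mouse, 5 of the 10 members (Itga8, Itga9, Itgb1, Itgb3 and Itgb5) followed the contractile genes of smooth muscle by the test of Pearson's r below. Correlations of this size were common for 2 of them, 9.54% of all tested genes having an r at least that of Itgb3 and 9.62% one at least that of Itgb5. For Itga8, Itgb1 and Itga9 the shares were 0.451%, 1.11% and 1.66%. The mean log2 CPM of the 13 contractile genes (Acta2, Myh11, Cnn1 and others) was 8.05 in ApoE-/- replicate 1, 9.25 to 9.90 in the other ApoE-/- mice and 9.18 to 9.999 in WT mice. Over 8 mice, 60 relations of the 10 members with 6 gene lists were computed, with exact permutation p-values adjusted over the 60. These tests were added after the data were seen. Both values of a pair come from the same library and scaling, and the 2 genotypes are pooled. Itga8 followed the contractile list with Pearson's r = 0.97 (adjusted p = 0.00843, permutation) and Spearman's rho = 0.93 (adjusted p = 0.0191). Itgb1 had r = 0.95 (adjusted p = 0.00978, permutation) and rho = 0.90 (adjusted p = 0.0304). Itga9 had r = 0.94 (adjusted p = 0.00843, permutation) and rho = 0.90 (adjusted p = 0.0304). Leaving out the 2 mice farthest from the median of the list, ApoE-/- replicate 1 and WT replicate 3, gave r = 0.90 for Itga8, 0.82 for Itgb1 and 0.92 for Itga9. Itgb3 had r = 0.81 (adjusted p = 0.0243, permutation) and rho = 0.86 (adjusted p = 0.0429), and r = 0.87 without these mice.

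Itga11, Itga1, Itga5, Itga7 and Itgav did not pass the test of Pearson's r with the contractile list, with adjusted p of 0.0677 to 0.553 (permutation), and the difference between the correlations was not tested. Of these Itgav alone passed by rho, at 0.86 (adjusted p = 0.0429, permutation). Its r was 0.70, which 15.5% of all tested genes reached, and 0.91 without the 2 farthest mice. Itga11 had r = 0.33 (adjusted p = 0.553, permutation) and rho = 0.07 (adjusted p = 0.928) with the contractile list, and r = 0.46 without the 2 farthest mice. With the mean of the 8 collagen genes, its ligands among them, it had r = 0.95 (adjusted p = 0.0125, permutation) but rho = 0.69 (adjusted p = 0.160), and r = 0.83 without ApoE-/- replicates 3 and 4, the farthest on that list. Of all tested genes 0.345% had an r with the collagens at least that of Itga11. With 13 macrophage markers it had r = 0.88 (adjusted p = 0.0286, permutation) and rho = 0.76 (adjusted p = 0.116), and with 9 fibroblast markers r = 0.81 (adjusted p = 0.0372, permutation) and rho = 0.69 (adjusted p = 0.160). Without the 2 farthest mice of each list these were 0.88 and 0.81. An r at least that of Itga11 was found for 2.77% of all tested genes with the macrophage list and 3.22% with the fibroblast list. By Pearson's r 5 members passed the test with the collagens, Itga5, Itgav, Itgb3 and Itgb5 besides Itga11. Itgb3 passed with the contractile list and with the collagens by both measures, having r = 0.84 (adjusted p = 0.0305, permutation) and rho = 0.86 (adjusted p = 0.0429) for the collagens. Itga5 had r = 0.88 (adjusted p = 0.0150, permutation) and rho = 0.93 (adjusted p = 0.0191), and Itgav r = 0.81 (adjusted p = 0.0471, permutation) and rho = 0.64 (adjusted p = 0.199). Without the 2 farthest mice the r with the collagens was 0.94 for Itgb3, 0.83 for Itga5 and 0.93 for Itgav. Itgb5 had r = 0.80 (adjusted p = 0.0441, permutation) and rho = 0.71 (adjusted p = 0.150) for the contractile list, r = 0.90 (adjusted p = 0.0130, permutation) and rho = 0.95 (adjusted p = 0.0191) for the collagens, and 0.72 and 0.88 without the farthest mice. For the collagens the share of all tested genes with an r at least as high was 1.46% for Itgb5, 1.92% for Itga5, 2.96% for Itgb3 and 4.02% for Itgav. Within a genotype there are only 4 mice, too few for a correlation.

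**Figure D5:**
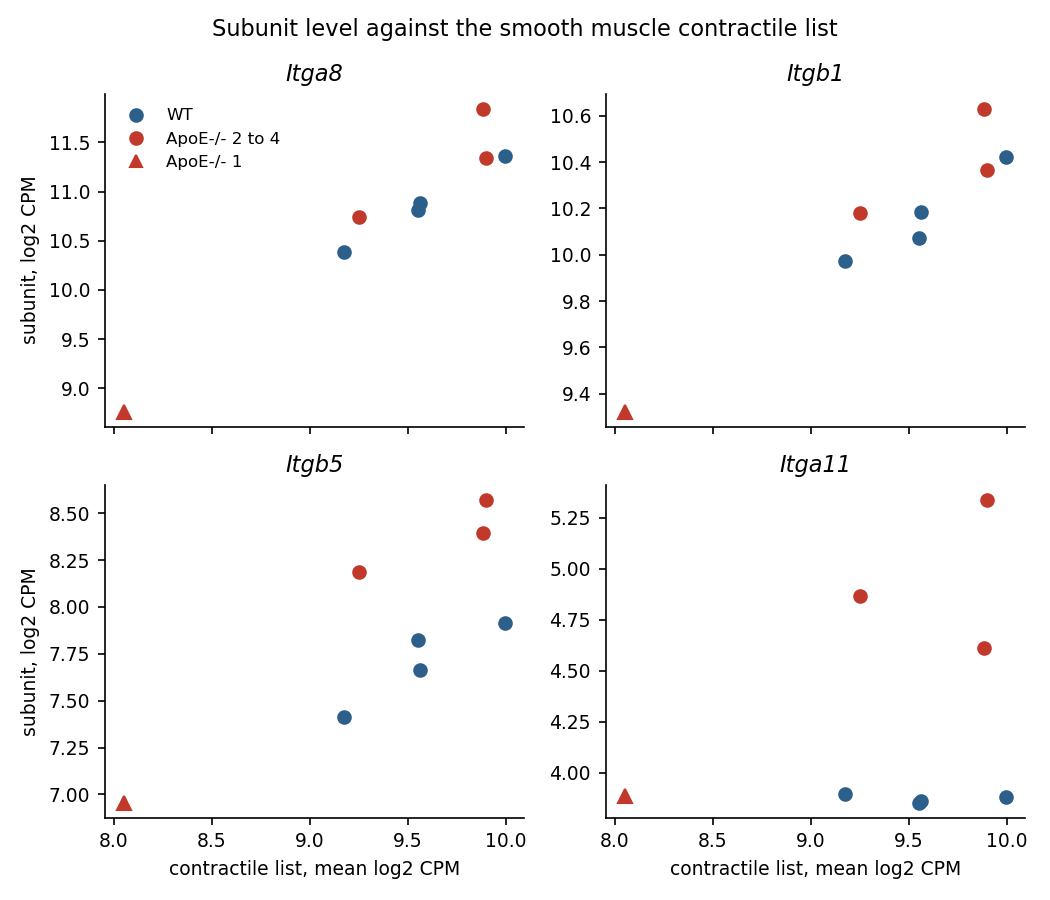
log2 CPM of Itga8, Itgb1, Itgb5 and Itga11 against the mean log2 CPM of 13 contractile genes in the same aorta. Points are WT (blue) and ApoE-/- replicates 2 to 4 (red), and the triangle is ApoE-/- replicate 1. Itga8 and Itgb1 climb with the list, at r = 0.97 and 0.95, and in Itga11 the 4 WT mice are level while 3 ApoE-/- mice lie above them.

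A comparison that was added after the data were seen set each member against the contractile list of its own library. On this scale the median of all genes lay 0.30 higher in ApoE-/- mice, because the contractile list itself averaged 9.27 in ApoE-/- and 9.57 in WT mice. Itga5, Itga9, Itga11, Itgb3 and Itgb5, 5 of the 10 members, then lay higher in every ApoE-/- mouse than in any WT mouse, where 3.87% of all genes did not overlap. Taking off the list can narrow the spread of genes that follow it and widen that of genes that do not. All genes had a median r of -0.10 with the list, and 8.71% of them did not overlap in CPM. The shares of all genes on this scale are thus no like comparator for members that follow the list, such as Itga9, Itgb3 and Itgb5. Itgb3 was at -2.58 to -2.16 in ApoE-/- and at -3.08 to -3.002 in WT mice, so that its lowest ApoE-/- mouse was 0.42 above its highest WT mouse, and for Itgb5 this gap was 0.24. For the other 3 the gap was marginal, at 0.008 for Itga11, 0.0034 for Itga9 and 0.0019 for Itga5. The differences were 1.10 for Itga11, 0.69 for Itgb3, 0.63 for Itgb5, 0.58 for Itga5 and 0.39 for Itga9. Less the shift of all genes they were 0.80, 0.39, 0.32, 0.28 and 0.08. Without ApoE-/- replicate 1 the differences were 0.96 for Itga11, 0.63 for Itgb3, 0.58 for Itgb5, 0.61 for Itga5 and 0.44 for Itga9. From these no shift of all genes was taken off, so they do not compare with the values less the shift. Over 8 mice Itga8, at 0.11, and Itgb1, at 0.26, overlapped on this scale. Without replicate 1 Itga8 differed by 0.34, at 1.44 to 1.96 in ApoE-/- and 1.21 to 1.37 in WT mice, so that 6 of 10 members no longer overlapped, beside 6.89% of all genes. Itga1 went from 0.14 to -0.24.

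Since part of the members moved together, the sequences before their start sites were compared. RefSeq (GRCm38.p6) gave 250 bases before the start for 8 of the 10, with no entry for Itga7 and Itgb3. For Itga9 the RefSeq start lies inside the gene as GENCODE M21 annotates it, so its window, which held no match, may not be before the start in use. Shown are the 120 bases up to the first annotated start for Itga8 and Itgb1, which followed the contractile genes, for Itga11, which did not, and for Itgb5, the second subunit called by DESeq2 without ApoE-/- replicate 1, 5′ to 3′ on the strand of the gene. Capitals mark matches to the motifs searched.
Itga8 (chr2:12301945-12302064, minus strand): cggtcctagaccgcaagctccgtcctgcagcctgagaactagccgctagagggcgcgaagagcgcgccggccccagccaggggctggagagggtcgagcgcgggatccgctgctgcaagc
Itgb1 (chr8:128685534-128685653, plus strand): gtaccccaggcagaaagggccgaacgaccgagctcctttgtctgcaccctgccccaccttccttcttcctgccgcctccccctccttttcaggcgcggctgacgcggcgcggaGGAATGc
Itga11 (chr9:62677706-62677825, plus strand): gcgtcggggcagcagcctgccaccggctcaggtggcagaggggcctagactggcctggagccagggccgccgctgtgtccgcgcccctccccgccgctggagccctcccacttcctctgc
Itgb5 (chr16:33829545-33829664, plus strand): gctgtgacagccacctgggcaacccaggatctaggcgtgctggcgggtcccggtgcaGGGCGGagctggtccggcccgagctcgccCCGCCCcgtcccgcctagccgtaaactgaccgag
The CArG box, the element bound by serum response factor in contractile genes, was searched on both strands as the letters CC, 6 of A or T, and GG. It occurred in 0 of 8 members, in 1 of 9 contractile genes with an entry (Myl9) and in 1.467% of all 32851 promoters of this length. The TEAD motif CATTCC occurred in 1 of 8 (Itgb1), beside 12.642% of all promoters. The SP1 motif GGGCGG occurred in 3 of 8 (Itga5, Itgb1 and Itgb5), beside 32.742%. The AP-1 motif TGANTCA, the TATA box TATAAA and the palindromic SMAD motif occurred in 0 of 8, beside 6.749%, 12.368% and 0.167%. No 2 of these motifs overlapped in a member. The member promoters held 55.6% to 68.4% G and C, above the median of 52.4% for all promoters. The promoters of Itga8 and Itga11 held no match to any of the 6, which says only that these letters are not in the window.

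The genes whose log2 CPM was most like that of a member, out of all tested genes, differed between members. They are given as a description, having been chosen for their r over 8 mice. Itga9 was most like Zyx (zyxin, a focal adhesion protein, r = 0.996), Fblim1 (migfilin, which links filamin to focal adhesions) and Sytl5. Itgb1 was most like Pls3 (plastin 3, an actin bundling protein, r = 0.999), Btbd7 and B3galnt2. Itga8 was most like Susd5, Msrb3 and Npas1, with r of 0.993 to 0.995. Itga11 was most like Bdkrb1 (bradykinin receptor B1, r = 0.991), Plaur (the urokinase receptor, r = 0.986) and Loxl2 (a collagen crosslinking enzyme, r = 0.985). Itgb5 was most like Serpine2 (protease nexin 1, an inhibitor of thrombin and urokinase, r = 0.997), Islr and Crtap (a collagen-modifying protein). Itga5 was most like Ppp1r18, Lrrc32 and Adamtsl4, Itgb3 like Cdr2, Aff2 and Ext1, Itgav like Glg1, Slc51b and Mybl1, Itga7 like Qsox2, Man2c1 and Osbp, and Itga1 like Iqcb1, Dgcr8 and Zfp329, with r of 0.960 to 0.993.

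The matrix ligands of these receptors were compared in the same fit. Of 18 RGD and matricellular ligands edgeR called 0, with 5 past an unadjusted p of 0.05, and DESeq2 called 3 higher (Spp1, Thbs1 and Ibsp). The list's median log2 fold change was 0.42, with 14 of 18 above 0. Spp1 (osteopontin, a ligand of αv and α9 integrins) was at 912 ± 578 CPM in ApoE-/- and 34.5 ± 33.0 CPM in WT mice, with a log2 fold change of 4.73 (edgeR adjusted p = 0.0660, DESeq2 adjusted p = 1.32e-08). Thbs1 (thrombospondin 1) was at 637 ± 343 and 239 ± 13.9 CPM, with 1.41 (edgeR adjusted p = 0.137, DESeq2 adjusted p = 0.00564). The smallest p below 0 belonged to Tgfb3 at -0.34 and Vtn (vitronectin) at -0.29, with edgeR adjusted p of 0.734 and 0.785. Without ApoE-/- replicate 1, edgeR called 5 and DESeq2 10 of the 18, each higher.

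Of 8 collagen genes all were above 0, with a median of 0.63, and edgeR called 0, with 2 past an unadjusted p of 0.05. DESeq2 called Col3a1, at 2653 ± 1034 CPM in ApoE-/- and 1034 ± 182 CPM in WT mice, with a log2 fold change of 1.36 (edgeR adjusted p = 0.107, DESeq2 adjusted p = 0.000774). Col1a1 was at 1395 ± 826 and 594 ± 111 CPM, with 1.23 (edgeR adjusted p = 0.264). Without replicate 1, 3 were called in edgeR and 6 in DESeq2. Laminin and nidogen genes, laminins being the ligands of the α7 receptor, had 5 of 9 above 0, a median of 0.04, 0 called by either tool and 0 past an unadjusted p of 0.05. Without replicate 1 edgeR called 0 of them and DESeq2 called 1, lower. Lama4, at -0.35 (adjusted p = 0.540), and Lamb1, at -0.27 (adjusted p = 0.815), had the smallest edgeR p below 0, and Lama5, at 0.23 (adjusted p = 0.864), and Lama2, at 0.10 (adjusted p = 0.894), above it.

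Inside the cell, 28 adaptor and focal adhesion genes had a median log2 fold change of 0.06, with 16 of 28 above 0 and 0 called in edgeR (5 past an unadjusted p of 0.05). DESeq2 called Fermt3 (kindlin 3, the kindlin of blood cells), at 20.8 ± 8.86 CPM in ApoE-/- and 10.4 ± 1.05 CPM in WT mice, with a log2 fold change of 1.01 (edgeR adjusted p = 0.166, DESeq2 adjusted p = 0.0293). Tns3 (tensin 3) was at 129 ± 17.2 and 97.4 ± 5.58 CPM, with 0.41 (edgeR adjusted p = 0.189). Below 0, Fermt1 was at -0.57 (edgeR adjusted p = 0.580) and Ilk (integrin-linked kinase) at -0.41 (adjusted p = 0.742). Ilk was counted at under 1 CPM in both genotypes, an unusually low level for a gene that most cells use, and how its read pairs were counted was not tested. Of the 60 relations above, those of 7 members with the adaptor list passed at r of 0.88 to 0.98 by the exact permutation test of r, Itga9 having the highest r. Of all tested genes, 5.14% had an r at least that of Itgb1, the lowest of the 7. By rho 6 of the 7 passed, Itgb1 having rho = 0.83 (adjusted p = 0.0577, permutation). Itga7, which did not pass by r (0.70, adjusted p = 0.131, permutation), passed by rho, at 0.86 (adjusted p = 0.0429, permutation). Without ApoE-/- replicates 1 and 3, the farthest on that list, r was 0.74 to 0.97 for the 7 that passed by r.

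The 9 other matrix integrin subunits had 0 called by either tool (1 past an unadjusted p of 0.05 in edgeR), a median of 0.33 and 6 of 9 above 0. Without ApoE-/- replicate 1 the median was 0.22, with 6 of 9 above 0, and DESeq2 called 1 of the 9, lower. Among the 9 subunits, over 8 mice, Itga4, an integrin subunit of leukocytes as well as of fibronectin binding, was at 29.3 ± 5.91 and 20.7 ± 2.60 CPM, with 0.50 (edgeR adjusted p = 0.264). Itga2 was at 0.59 (adjusted p = 0.708), Itgb6 at -1.16 (adjusted p = 0.596) and Itga6 at -0.21 (adjusted p = 0.793). Of the 8 leukocyte integrins 6 had enough counts to be tested and all 6 were above 0, with a median of 1.36, and edgeR called Itgax alone while DESeq2 called 5. The edgeR count was 3 without ApoE-/- replicate 1 and 0 when any other single mouse was left out, and it was 0 in limma-voom and with the replicate block. DESeq2 called 4 or 5 whichever mouse was left out. Itgax (CD11c, of macrophages and dendritic cells) was at 7.31, 26.2, 45.4 and 55.0 CPM in ApoE-/- replicates 1 to 4 and at 1.16 to 1.83 CPM in WT mice, with a log2 fold change of 4.44 (SE 0.61, adjusted p = 0.0380). Itgam (CD11b) was at 6.50 ± 2.30 and 2.17 ± 0.495 CPM, with 1.58 (edgeR adjusted p = 0.0645). Their difference from the matrix integrins was not tested.

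The levels of cell type marker lists are given beside these values. The 13 macrophage markers summed to 591 to 2963 CPM in ApoE-/- and 336 to 475 CPM in WT mice, all 13 being above 0 and without overlap, with 1 called in edgeR (Trem2) and 10 in DESeq2. The edgeR count was 10 without ApoE-/- replicate 1 and 0 when any other single mouse was left out, in limma-voom or with the replicate block. The 9 fibroblast markers summed to 1951 to 5131 CPM and 2211 to 2738 CPM, with 8 of 9 above 0, 0 called in edgeR (2 past an unadjusted p of 0.05) and 1 in DESeq2 (Lum). Without ApoE-/- replicate 1 the fibroblast sums were 3478 to 5131 CPM against 2211 to 2738 CPM, without overlap, with all 9 above 0 and 3 called by each tool. The 10 endothelial markers were all below 0, summing to 1858 to 2769 CPM and 2680 to 3184 CPM, with 0 called in edgeR (6 past an unadjusted p of 0.05) and 4 in DESeq2, and without replicate 1 edgeR called 3 and DESeq2 4, each lower. Of the 7 Schwann cell markers 2 were above 0, with 0 called by edgeR or DESeq2 and 0 past an unadjusted p of 0.05 in edgeR, and without replicate 1 they were all below 0, with 3 called in edgeR and 4 in DESeq2. Contractile markers had 2 of 13 above 0 and a median of -0.17, which was 0.12 without ApoE-/- replicate 1, with 0 called by edgeR or DESeq2 with or without it and 0 past an unadjusted p of 0.05 over 8 mice. The 6 B cell markers were all above 0, summing to 11.4 to 28.5 CPM in ApoE-/- and 4.71 to 7.76 CPM in WT mice without overlap, with 0 called in edgeR (4 past an unadjusted p of 0.05) and 1 in DESeq2 (Cd22), and edgeR called 1 without replicate 1. Of 6 tested proliferation markers 5 were above 0, summing to 33 to 59.1 CPM and 24.7 to 33.6 CPM with overlap, with 0 called in edgeR (5 past an unadjusted p of 0.05) and 1 in DESeq2 (Top2a), and without replicate 1 DESeq2 called 3. The 7 adipocyte markers summed to 2715 to 11360 CPM in ApoE-/- and 5814 to 11570 CPM in WT mice, with overlap. Of these 6 were below 0, with a median of -0.48, and 0 were called by edgeR or DESeq2 with or without replicate 1. The part of macrophages, fibroblasts, endothelium, Schwann cells, B cells, adipocytes or dividing cells in the level of Itga11, Itgb5 or any other member was not tested.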

How the data were processed

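RNA from 8 aortas, 4 per genotype, was analysed from the counts of read pairs per gene that the authors deposited for each mouse, with no normalization. The submitters' processing notes name TopHat2, HTSeq and the build GRCm38 (mm10), without versions. The annotation is not given in the sources used here. Rows for pairs with no gene, an ambiguous gene or several places were left out of library sizes. Pairs with no gene were 50.1% to 54.7% of all pairs in ApoE-/- and 56.4% to 58.0% in WT mice. Pairs on genes were 32.3% to 35.6% and 27.9% to 30.2%. Neither share overlapped between genotypes, so every comparison carries this difference between libraries, and its cause was not tested. Of 21859 gene identifiers, 21191 matched GENCODE M21 with the same version, which gave positions and exon lengths.

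With R 4.3.3, genes were filtered with filterByExpr, scaled by TMM and tested with the quasi-likelihood test of edgeR 4.0.16 (robust, genotype as the only factor), adjusted over 15077 genes at 0.05. DESeq2 1.42.0, the tool the study names, and voom of limma 3.58.1 were alternatives, as were other scaling, other filters, the replicate block and leaving out each mouse. Log2 CPM for ratios, lists and correlations used a prior count of 2. Scripts were tested on simulated data. No column belonged to another sample.

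The members and gene lists were chosen with earlier results of these data known. Genes named were the 10 members, genes called in edgeR or with the 2 smallest p-values in each direction in the ligand, adaptor and integrin lists, the 3 genes most like each member, and up to 3 defining markers, besides Apoe. Lum, Cd22, Top2a, Ryr2, Ibsp and Itga2b as a platelet gene are outside this rule and were chosen after their values were seen. Nothing says whether the mice were littermates, so whether a difference between genotypes is also one between litters cannot be told. The p-values set a difference against the spread between these animals.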

Additional observations from a re-analysis of the deposited data

Results flagged for a closer look

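In groups of 4 mice, 80 groups of values (members, ratios and gene lists) were compared with Dixon's 95% critical value for the gap to the nearest mouse divided by the whole range. In 5 of the 80 a mouse stood apart, where chance gives 4. The contractile and Schwann cell lists, on which ApoE-/- replicate 1 was set apart above, were not among them. The log2 ratio of Itga1 to Itgb1 in ApoE-/- mice gave 0.905, replicate 1 being high. The log2 ratio of Itga5 to Itgb1 in ApoE-/- mice gave 0.832, replicate 3 being high. The endothelial markers in ApoE-/- mice gave 0.839 with replicate 4 high, the heart muscle markers in ApoE-/- mice 0.905 with replicate 1 high, and the T cell markers in WT mice 0.870 with replicate 3 low. The T cell markers that could be tested were 7, with 0 called by edgeR and DESeq2 (2 past an unadjusted p of 0.05), and they summed to at most 12.7 CPM in any mouse.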

How the results depend on the processing

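Under other scaling, other filters, no robust estimation, limma-voom, DESeq2 and the replicate block, 0 of 10 subunits were called. Few of the 14011 to 19606 genes tested were called in most of these settings. The numbers were 74 under either scaling, 63 and 50 under the filters, and 73 without robust estimation. They were 29 in limma-voom, 721 in DESeq2 and 2 with the block. Leaving out each mouse in turn gave 0 to 2 called (1 in edgeR and 2 in DESeq2, both without ApoE-/- replicate 1) and 0 to 2 without overlap. These were 2 without ApoE-/- replicate 1, beside 17.3% of all genes, and 1, Itga11, without WT replicate 4. For the fit without WT replicate 4 the share of all genes was not computed. There Itga11 was separated by a narrow gap. In the main fit ApoE-/- replicate 1 was at 14.69 CPM and WT replicate 3 at 14.63 CPM. Relative to the contractile list, added after the data were seen, the count without overlap was 5, beside 3.87% of all genes, which is no like comparator as said above. Of 240 member fold changes under the alternatives, 215 kept direction and side of the threshold, 3 passed it and 22 changed sign. In limma-voom Itga8 was at -0.19 and Itgb1 at -0.037. With the replicate block, which left 2 genes called in all, they were at -0.15 and -0.036. The replicate numbers belong to different mice and do not pair them: deviations of same-numbered mice from their genotype means correlated at 0.06, -0.45, 0.32 and 0.16, and not every mouse correlated best with its own number. Leaving out each mouse gave log2 fold changes of -0.043 to 0.83 for Itga5, -0.062 to 0.21 for Itga7, -0.28 to 0.48 for Itga8, -0.004 to 0.57 for Itga9 and -0.16 to 0.23 for Itgb1. It gave log2 ratio differences of -0.046 to 0.24 for Itga7/Itgb1, -0.37 to 0.22 for Itga8/Itgb1, -0.024 to 0.20 for Itgb3/Itgb5, -0.029 to 0.49 for Itga5/Itgb1, -0.082 to 0.32 for Itga9/Itgb1, -0.26 to 0.53 for Itga5/Itga7 and -0.32 to 0.021 for Itgav/Itgb5. The cause of these changes was not tested. The genes called in edgeR fell to 0 without ApoE-/- replicate 3, WT replicate 2 or WT replicate 4, against 70 with all mice and 593 without ApoE-/- replicate 1.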
